A study of Mus musculus with 40 samples.

Results

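Spi1, Irf8, Irf5, Sall1, Mef2c, Mef2a, Runx1, Cebpa and Bhlhe41 encode transcription factors of the lineage and state of microglia, the resident macrophages of the brain. These 9 genes were taken by name from a cortical gene count table that listed 43346 genes. The tests ran on the 21253 genes that reached 10 counts in 4 or more of the 40 libraries, and all 9 did so in every library.

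Microglia arise from yolk sac progenitors and keep their identity through a network of DNA-binding proteins. Runx1 and Cebpa act in blood cell and myeloid development, and Spi1 encodes PU.1, the ETS-family factor that opens macrophage enhancers. Irf8 and Irf5 are interferon regulatory factors, and IRF8 binds composite sites together with PU.1. Sall1 is a zinc-finger repressor that keeps microglia in their resting state, MEF2 factors help to shape the microglial enhancer repertoire but also act in neurons, and Bhlhe41 is a basic helix-loop-helix repressor that binds E-box motifs.

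RNA was sequenced from the cortex of mice that carried either wild-type Trem2 (WT) or the H157Y substitution on both alleles (Hom), a change introduced with CRISPR/Cas9 at the site where the TREM2 receptor is cleaved from the cell surface. The amyloid cohort carried the 5xFAD transgenes in the hemizygous state, which are expressed from a neuronal promoter, and was 8.5 months old, whereas the non-amyloid cohort carried no such transgenes and was 6 months old. Each of the 4 groups held 10 mice, with 5 females and 5 males, so 40 libraries in all were compared. By the methods of the study the amyloid mice were littermates, results come from offspring of 1 founder unless stated otherwise, and poly-A RNA came from the cortex of 1 hemisphere after perfusion with saline. Transgenes and age differ together between the cohorts, and their parts in a cohort difference cannot be told apart.

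The libraries held 41646271 to 105903846 gene counts, and the lowest total belonged to 1 amyloid Hom female, replicate 19. In that library 0.617% of counts fell on 569 genes that lie mostly under a far more abundant gene of the opposite strand, against 0.0144% to 0.0191% in the other 39 libraries, so differences that involve amyloid Hom mice are given with and without it. The edit changes a codon and leaves the Trem2 messenger in place, so the level of Trem2 does not check the genotype labels. As reads per 1000000 mapped to genes after TMM scaling of the library (CPM), it was 62.2 ± 24.4 (SD, n = 10) in amyloid WT, 33.9 ± 10.3 in amyloid Hom, 10.7 ± 2.13 in non-amyloid WT and 10.4 ± 1.59 in non-amyloid Hom mice. Microglial RNA was present in every library, with the 15 core microglial markers summing to 407 CPM or more, and whether a change reflected more microglia or more RNA per microglial cell cannot be told apart in bulk tissue.

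Scaled to gene length, the 9 genes spanned more than 3 orders of magnitude in the cortex. In non-amyloid WT mice Mef2c stood at 134 ± 21.2 CPM per kb of exon (SD, n = 10), Mef2a at 33.2 ± 3.87, Bhlhe41 at 7.62 ± 0.777, Sall1 at 3.86 ± 0.345 and Cebpa at 1.92 ± 0.338. Irf5 at 0.778 ± 0.152, Irf8 at 0.557 ± 0.0556 and Spi1 at 0.498 ± 0.130 CPM per kb followed, with Irf8 and Spi1 within 1 SD of each other, and Runx1 was lowest at 0.0733 ± 0.00911. The same order held in amyloid WT mice, where Irf5 at 2.09 ± 0.553 and Irf8 at 1.89 ± 0.631 CPM per kb lay within 1 SD of each other, as did Irf8 and Spi1 at 1.29 ± 0.395. The counts behind the weakest gene, Runx1, ran from 31 to 367 per library, and those behind Mef2c from 39608 to 105875.

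The amyloid cohort carried more RNA for most of these factors. In WT mice 6 of the 9 genes were higher in the amyloid than in the non-amyloid cohort (edgeR quasi-likelihood test, Benjamini-Hochberg adjusted p under 0.05 over all genes tested and an absolute log2 fold change over 0.25), against 7.95% of all genes called in either direction. They were Irf8, Runx1, Irf5, Spi1, Cebpa and Sall1, whereas Mef2c, Mef2a and Bhlhe41 were not called. Every amyloid WT mouse stood above every non-amyloid WT mouse for 4 of the 9 genes, Irf8, Runx1, Irf5 and Spi1, against 1.95% of all genes. The median log2 fold change of the 9 genes was 1.04, beside 0.00 over all genes tested.

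In Hom mice Irf8, Runx1, Irf5, Cebpa and Spi1 were higher with amyloid as well. Against non-amyloid Hom mice, 5 of the 9 genes were higher and Bhlhe41 was lower in amyloid Hom mice, with 6.56% of all genes called. Irf8 and Runx1 were the 2 genes for which every amyloid Hom mouse exceeded every non-amyloid Hom mouse, against 0.875% of all genes. The median log2 fold change was 0.53 over the 9 genes and 0.03 over all genes, and the same 6 members were called without replicate 19. Without that library the log2 fold changes in Hom mice were 1.03 for Irf8, 1.15 for Runx1, 0.76 for Irf5, 0.61 for Cebpa, 0.58 for Spi1, 0.22 for Sall1 (adjusted p = 0.171) and −0.29 for Bhlhe41.

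Within the amyloid cohort, Hom mice carried less Spi1, Irf8, Runx1, Cebpa and Sall1 than WT mice in the means, but 0 of the 9 differences passed the threshold in edgeR, which called 0.0753% of all genes. At an unadjusted p under 0.05 there were 5 members, beside 2056 of 21253 genes. DESeq2 called 4 members (Spi1, Irf8, Irf5 and Runx1, all lower, beside 1.41% of all genes) and limma-voom called 0. For Irf5 the DESeq2 estimate was −0.54, against 0.05 in edgeR with replicate 19 and −0.58 without it. Without that library edgeR also called 0 of the 9 genes. With sex as a covariate edgeR called 3 (Spi1, Irf8 and Runx1, beside 1.18% of all genes), and a single fit of all 40 libraries called these 3 and Cebpa, beside 2.88%. In the non-amyloid cohort 0 of the 9 genes were called by edgeR, DESeq2 or limma-voom and 0 had an unadjusted p under 0.05, with 0.0329% of all genes called by edgeR.

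**Figure D1:**
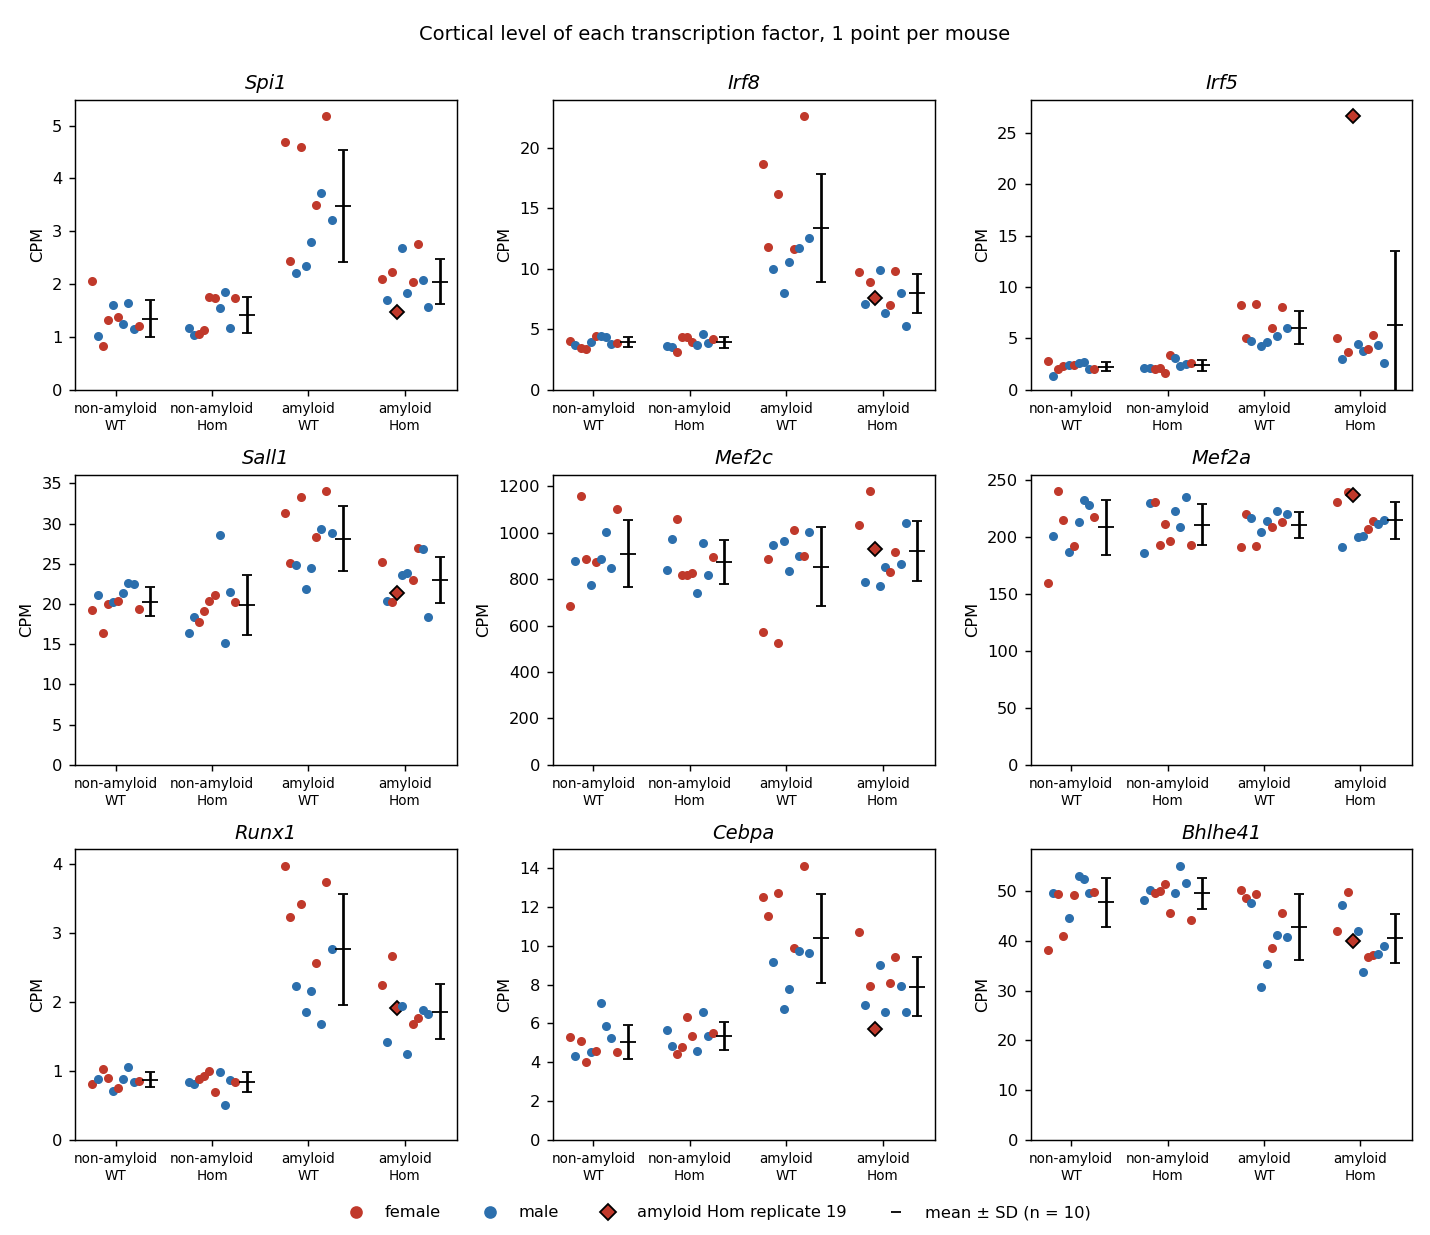
Each panel plots 1 transcription factor in CPM for the 40 mice by group, with females in red, males in blue, replicate 19 as a black-edged diamond and the mean ± SD (n = 10) beside each group; the SD bar of Irf5 in amyloid Hom mice is cut at 0. Irf8 lies at 8.03 to 22.6 CPM in amyloid WT and at 3.38 to 4.45 CPM in non-amyloid WT mice, and the single Irf5 value at 26.7 CPM is replicate 19.

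Spi1 (chr2:91082390-91115756, mm10), which encodes PU.1, illustrates this order of groups. Its lowest, median and highest values were 0.825, 1.28 and 2.05 CPM in non-amyloid WT mice, 1.03, 1.36 and 1.84 CPM in non-amyloid Hom mice, 2.21, 3.36 and 5.18 CPM in amyloid WT mice and 1.48, 2.05 and 2.76 CPM in amyloid Hom mice. Amyloid WT mice lay wholly above their non-amyloid counterparts, and 7 of 10 amyloid Hom mice lay below every amyloid WT mouse. The level was 2.58-fold higher with amyloid in WT mice (log2 fold change 1.37 ± 0.16 SE, adjusted p = 1.97e-08) and 1.45-fold higher in Hom mice (0.53 ± 0.16, adjusted p = 0.0347). The second of these calls was lost when any 1 of 8 mice was left out, amyloid Hom replicates 16, 25 and 34 or non-amyloid Hom replicates 2, 4, 6, 11 and 35, with adjusted p up to 0.0736. Hom against WT within the amyloid cohort gave −0.76 ± 0.16 (adjusted p = 0.0554; −0.72 and 0.0853 without replicate 19), and −0.74 with an adjusted p of 0.0149 once sex was a covariate.

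Irf8 (chr8:120736358-120756694) encodes the partner of PU.1 that microglia need for their mature state. It ran from 3.38 over a median of 3.88 to 4.45 CPM in non-amyloid WT mice and from 3.14 over 3.90 to 4.60 CPM in non-amyloid Hom mice. Among amyloid mice the values were 8.03, 11.7 and 22.6 CPM in WT and 5.30, 7.77 and 9.93 CPM in Hom mice. Both amyloid groups stood clear of both non-amyloid groups, and 6 of 10 amyloid Hom mice were below every amyloid WT mouse. The cohort difference was 3.40-fold in WT mice (1.77 ± 0.13, adjusted p = 8.56e-14) and 2.02-fold in Hom mice (1.02 ± 0.13, adjusted p = 2.99e-07). The genotype difference in the amyloid cohort was −0.75 ± 0.16 on the log2 scale (adjusted p = 0.0554; −0.74 and 0.0853 without replicate 19), and −0.72 with an adjusted p of 0.00904 with sex as a covariate.

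The genotype calls for Spi1 and Irf8 turned on single libraries as well. Both passed the threshold when amyloid WT replicate 9, 13 or 22 was left out, and Irf8 alone when amyloid Hom replicate 3 was left out, with adjusted p from 0.0188 to 0.0448 in these fits. These 3 WT mice were males and had the lowest Irf8 of their group, at 8.03 to 10.5 CPM.

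Because Irf8 had the largest cohort difference of the 9 genes in WT mice and Mef2c had no cohort call, the bases before the first start of each gene are shown from RefSeq on GRCm38.p6, 5′ to 3′. RefSeq held such entries for 8 of the 9 genes, with 14 starts, and none for Spi1. Capitals mark 9-base matches to TTCNNNGAA, the element bound by STAT factors, and, in Mef2c, also a match to AAANNGAAA on the reverse strand, a core of sites bound by IRF factors.
Irf8, chr8:120736108-120736357, plus strand: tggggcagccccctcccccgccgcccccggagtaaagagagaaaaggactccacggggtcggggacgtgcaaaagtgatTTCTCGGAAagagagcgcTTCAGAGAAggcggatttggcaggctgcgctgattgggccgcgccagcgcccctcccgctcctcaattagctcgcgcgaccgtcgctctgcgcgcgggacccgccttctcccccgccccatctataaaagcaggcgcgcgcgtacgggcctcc
Mef2c, chr13:83503784-83504033, plus strand: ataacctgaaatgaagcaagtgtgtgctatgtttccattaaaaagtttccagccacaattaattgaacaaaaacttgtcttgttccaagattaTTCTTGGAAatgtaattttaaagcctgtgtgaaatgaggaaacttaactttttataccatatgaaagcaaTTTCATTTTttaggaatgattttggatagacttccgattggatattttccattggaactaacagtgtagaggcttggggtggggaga

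The pair of STAT elements in Irf8 lay 171 to 163 and 153 to 145 bases before the start, and the single one in Mef2c 157 to 149 bases before it. This motif was added to the search after the Irf8 sequence had been read, and 7.02% of all 32851 RefSeq mouse promoter windows of 250 bases hold it on either strand. The IRF core lay 87 to 79 bases before the Mef2c start and 230 to 222 bases before a Runx1 start, and 9.37% of windows hold it. The E-box CACGTG, the motif that Bhlhe41 itself binds, lay 153 to 148 bases before the Bhlhe41 start and 71 to 66 bases before a Runx1 start, against 6.02% of windows. Matches to GAGGAAGT (PU.1, 2.44% of windows), TAAAAATA (MEF2, 2.45%), TGTGGT (RUNX, 14.05%) and TTGCNNAA (C/EBP, 9.56%) were in none of the 14 windows. The letters overlap in none of these matches, and a match is a description of sequence.

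Irf5 (chr6:29526625-29541869), an activator of inflammatory cytokine genes, depended on replicate 19 wherever amyloid Hom mice entered. Its values were 1.32, 2.33 and 2.79 CPM in non-amyloid WT mice, 1.66, 2.20 and 3.38 CPM in non-amyloid Hom mice and 4.24, 5.64 and 8.35 CPM in amyloid WT mice. Amyloid Hom mice spread from 2.63 over 4.21 to 26.7 CPM, and the highest value other than replicate 19 was 5.29 CPM. The exons at the end of Irf5 share 411 bases (14.1% of its exonic bases) with Tnpo3 on the opposite strand, at chr6:29541146-29541305 and chr6:29541616-29541866. Scaled to the library total without TMM, Tnpo3 had a median of 124 CPM against 3.13 CPM for Irf5. Replicate 19 was also the library with the high share of counts on genes under an abundant opposite-strand gene. Its Tnpo3 level on the same scale, 116 CPM, lay within the 109 to 148 CPM of all libraries. The part of the Tnpo3 overlap in the Irf5 value was not tested. Hom against WT in the amyloid cohort was 0.05 ± 0.34 with replicate 19 (adjusted p = 0.968) and −0.58 without it (adjusted p = 0.128), and −0.54 with an adjusted p of 0.0364 without it and with sex as a covariate.

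Between the cohorts Irf5 was 2.68-fold higher in WT mice (1.42 ± 0.28, adjusted p = 1.98e-04), in the fit of all 40 libraries that also holds replicate 19. With only the 2 WT groups in the edgeR fit the adjusted p was 2.39e-07. The Irf5 log2 fold change in Hom mice was 1.39 ± 0.28 with replicate 19 (adjusted p = 5.89e-04) and 0.76 without it (adjusted p = 5.21e-04). Opposite-strand overlap was smaller for the other members, at 302 exonic bases for Mef2a with Lysmd4 and 106 for Runx1 with Gm26626, and 0 for Spi1, Irf8, Sall1, Mef2c, Cebpa and Bhlhe41.

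Runx1 (chr16:92601466-92826149), a factor of definitive blood formation, had the largest cohort difference after Irf8 in WT mice. It ran from 0.703 over 0.865 to 1.05 CPM in non-amyloid WT mice and from 0.497 over 0.852 to 0.989 CPM in non-amyloid Hom mice. The amyloid values were 1.67, 2.66 and 3.97 CPM in WT and 1.25, 1.85 and 2.67 CPM in Hom mice. Amyloid and non-amyloid mice did not overlap, while 2 of 10 amyloid Hom mice fell below every amyloid WT mouse. The level was 3.18-fold higher with amyloid in WT mice (1.67 ± 0.14, adjusted p = 4.85e-12) and 2.23-fold higher in Hom mice (1.16 ± 0.14, adjusted p = 1.58e-07). Hom against WT gave −0.57 ± 0.16 in the amyloid cohort (adjusted p = 0.120; −0.57 and 0.171 without replicate 19). With sex as a covariate it was −0.54 (adjusted p = 0.0386), and −0.52 (adjusted p = 0.0605) when replicate 19 was left out as well.

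Cebpa (chr7:35119293-35121926), a basic leucine zipper factor of myeloid differentiation, moved in the same way by smaller amounts. Its values were 4.02, 4.84 and 7.04 CPM in non-amyloid WT, 4.42, 5.34 and 6.59 CPM in non-amyloid Hom, 6.75, 9.80 and 14.1 CPM in amyloid WT and 5.70, 7.93 and 10.7 CPM in amyloid Hom mice. Amyloid WT mice exceeded every non-amyloid WT mouse in 9 of 10 cases, amyloid Hom mice exceeded every non-amyloid Hom mouse in 7 of 10, and 3 of 10 amyloid Hom mice lay below every amyloid WT mouse. The cohort difference was 2.06-fold in WT mice (1.04 ± 0.12, adjusted p = 4.37e-09) and 1.48-fold in Hom mice (0.56 ± 0.12, adjusted p = 9.70e-04). The genotype difference in the amyloid cohort was −0.40 ± 0.13 (adjusted p = 0.201; −0.35 and 0.345 without replicate 19).

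Sall1 (chr8:89027248-89044162), the repressor that keeps microglia in their resting state, was already well expressed without amyloid and had the smallest of the called rises. Non-amyloid WT mice lay at 16.3, 20.3 and 22.6 CPM and non-amyloid Hom mice at 15.2, 19.7 and 28.6 CPM. The amyloid groups lay at 21.9, 28.5 and 34.1 CPM in WT and 18.4, 23.3 and 26.99 CPM in Hom mice. All but 1 amyloid WT mouse stood above every non-amyloid WT mouse. Among Hom mice 0 of 10 did so, which rested on non-amyloid Hom replicate 21 at 28.6 CPM. The next highest non-amyloid Hom mouse was at 21.5 CPM, below the amyloid Hom median of 23.3 CPM. The difference was 1.39-fold in WT mice (0.47 ± 0.09, adjusted p = 1.08e-04) and 1.16-fold in Hom mice, where it was not called (0.21 ± 0.09, adjusted p = 0.142) unless non-amyloid Hom replicate 21, the mouse at 28.6 CPM, was left out (0.28, adjusted p = 0.0233). Hom against WT in the amyloid cohort was −0.29 ± 0.08 (adjusted p = 0.126; −0.28 and 0.234 without replicate 19), and 4 of 10 Hom mice were lower than the lowest WT mouse.

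Mef2c (chr13:83504034-83667079) and Mef2a (chr7:67231163-67372858), MADS-box factors that neurons make as well, were not called in any comparison of groups per library. The 4 group medians of Mef2c ran from 834 to 899 CPM and those of Mef2a from 210 to 214 CPM, and the ranges of the groups overlapped. The cohort difference in WT mice was −0.09 (95% interval −0.29 to 0.11) for Mef2c and 0.01 (−0.10 to 0.13) for Mef2a, and the genotype difference in the amyloid cohort was 0.11 (−0.12 to 0.34) and 0.03 (−0.07 to 0.13). Within the amyloid WT group 2 females, replicates 5 and 12, had Mef2c at 574 and 523 CPM while the other 8 mice lay at 833 CPM or above, and the same 2 mice had the lowest Mef2a of the group. These were among the 3 amyloid WT mice with the most Spi1 and Irf8.

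Bhlhe41 (chr6:145858243-145865558) was lower with amyloid in Hom mice. Its values were 38.2, 49.6 and 53.0 CPM in non-amyloid WT mice and 44.1, 49.9 and 55.1 CPM in non-amyloid Hom mice. Amyloid mice lay at 30.6, 43.5 and 50.3 CPM in WT and at 33.8, 39.4 and 49.9 CPM in Hom mice. In the Hom genotype 8 of 10 amyloid mice lay below every non-amyloid mouse, and the level was lower by 0.29 ± 0.07 on the log2 scale (fold 0.82, adjusted p = 0.00935; 0.0178 without replicate 19). In WT mice the estimate was −0.16 ± 0.07 (adjusted p = 0.211), and the genotype difference in the amyloid cohort was −0.08 ± 0.09 (adjusted p = 0.748).

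**Figure D2:**
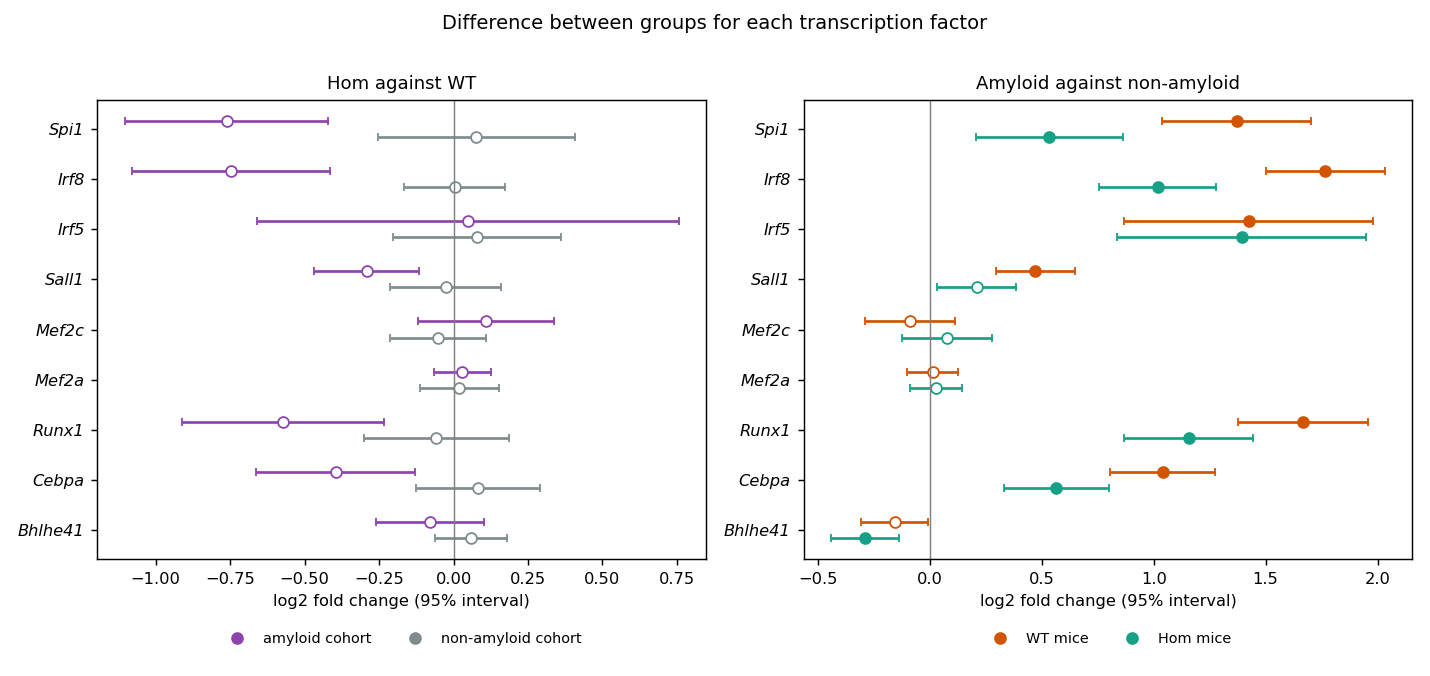
Log2 fold changes with 95% intervals for the 9 genes, Hom against WT in each cohort (left) and amyloid against non-amyloid in each genotype (right), with filled circles for differences that passed the threshold. On the right 6 circles are filled in each genotype, from 0.47 to 1.77 in WT mice, and on the left the lowest values are Spi1 at −0.76 and Irf8 at −0.75 in the amyloid cohort, both open.

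The comparison of genotypes within amyloid and the comparison of cohorts within WT mice share the amyloid WT mice, so their values are set side by side and not correlated. The test of whether the genotype difference itself differed between the cohorts called 0 of the 9 genes and 0% of all genes in edgeR, while 5 members and 2189 of all genes had an unadjusted p under 0.05. The largest estimates were −0.84 ± 0.23 for Spi1 (adjusted p = 0.136) and −0.75 ± 0.18 for Irf8 (adjusted p = 0.111), followed by Runx1 at −0.51, Cebpa at −0.48 and Sall1 at −0.26. Without replicate 19 they were −0.79 for Spi1 (adjusted p = 0.265), −0.74 for Irf8 (adjusted p = 0.211), −0.52 for Runx1, −0.43 for Cebpa and −0.25 for Sall1, and Irf5 moved from −0.03 to −0.66 (adjusted p = 0.325). DESeq2 called 1 member, Irf8, at −0.74 (adjusted p = 0.0491), beside 27 of all genes, and edgeR did so when amyloid WT replicate 13 was left out (−0.81, adjusted p = 0.0372). Non-amyloid Hom and WT mice differed by −0.06 to 0.08 on the log2 scale over the 9 genes, with 95% intervals inside −0.30 to 0.41.

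Females of the amyloid cohort had higher estimates than males for 8 of the 9 genes, but the sex difference, averaged over the genotypes, was called by edgeR for 0 of them, with 0.221% of all genes called. At an unadjusted p under 0.05 there were 4 members, beside 1741 of all genes (8.19%), and DESeq2 called 1, Runx1 (0.47, adjusted p = 0.0202), beside 1.21% of all genes. Runx1 in amyloid WT mice was 3.38 ± 0.542 CPM (SD, n = 5) in females and 2.13 ± 0.419 CPM in males, and only 1 male exceeded the lowest female. Irf8 was 16.2 ± 4.69 CPM in amyloid WT females and 10.6 ± 1.73 CPM in males, and Cebpa 12.2 ± 1.57 CPM and 8.61 ± 1.29 CPM. All 5 WT females stood above all 5 WT males for Cebpa, and the share of all genes that do so was not counted. In amyloid Hom mice the sexes overlapped, with Cebpa from 5.70 CPM in females and up to 9.03 CPM in males. Runx1 there ran from 1.67 CPM in females and up to 1.94 CPM in males. The 15 core microglial markers also had higher estimates in females (median 0.46), with 15 at an unadjusted p under 0.05 and 1 called. The log2 sex difference was 0.48 ± 0.13 for Runx1 (adjusted p = 0.113), 0.42 ± 0.13 for Irf8 (adjusted p = 0.223), 0.34 ± 0.11 for Cebpa (adjusted p = 0.224) and 0.31 ± 0.15 for Spi1 (adjusted p = 0.610), and for Irf5 it was 0.90 with replicate 19 and 0.40 without it. Without that library the others were at 0.48 for Runx1, 0.43 for Irf8, 0.38 for Cebpa and 0.35 for Spi1, and 0 were called.

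Whether the genotype difference in the amyloid cohort depended on sex was tested as well, and 0 of the 9 genes and 0% of all genes were called by edgeR, with 0 called by DESeq2. An unadjusted p under 0.05 was reached by 2 members, Mef2a and Mef2c, beside 5.29% of all genes. Without replicate 19 these estimates were 0.20 for Mef2a and 0.45 for Mef2c, against 0.22 and 0.44 with it. Mef2c was 978 ± 134 CPM in amyloid Hom females and 778 ± 216 CPM in amyloid WT females (SD, n = 5), a group that holds the 2 low mice, and 863 ± 108 CPM against 929 ± 65.6 CPM in males.

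Microglial marker RNA moved with the groups. The 15 core microglial markers, among them Csf1r and C1qa, summed to 407 to 547 CPM in non-amyloid WT, 432 to 497 CPM in non-amyloid Hom, 898 to 2219 CPM in amyloid WT and 667 to 1235 CPM in amyloid Hom mice. All 15 were called higher with amyloid in WT mice (median log2 fold change 1.88) and in Hom mice (1.07), beside 7.95% and 6.56% of all genes called. Hom against WT in the amyloid cohort gave negative estimates for 15 of 15 (median −0.67), with 0 called by edgeR. There were 15 at an unadjusted p under 0.05 (9.67% of all genes) and 13 called by DESeq2 (1.41% of all genes). To set each transcription factor beside these markers, the counts were also normalised to the geometric mean of the 15 core markers, which holds none of the 9 genes. The choice shifted the median of all genes to 0.64 for Hom against WT in the amyloid cohort, where 79.5% of all genes were called, and to −1.61 for amyloid against non-amyloid in WT mice, where 96.2% were called. Genes that kept pace with the markers lie near 0 on this scale and genes that kept pace with the library lie near those medians. For Hom against WT, Spi1 was at −0.07 (95% interval −0.41 to 0.27), Irf8 at −0.05 (−0.31 to 0.22) and Runx1 at 0.12 (−0.22 to 0.47), Cebpa lay between at 0.28 (0.01 to 0.56), and Sall1 was at 0.37 (0.09 to 0.66). Bhlhe41 at 0.60, Mef2a at 0.65 and Mef2c at 0.70 lay near the median of all genes. Irf5 was at 0.78 with replicate 19 and at 0.08 (adjusted p = 0.651) without it, and the others moved by little, to −0.04 for Spi1, −0.05 for Irf8, 0.11 for Runx1, 0.32 for Cebpa and 0.37 for Sall1. With the 10 homeostatic microglial markers as the scale the values were lower, at −0.28 for Spi1, −0.25 for Irf8 (adjusted p = 0.0588), −0.08 for Runx1, 0.08 for Cebpa and 0.18 for Sall1, which was then not called (adjusted p = 0.120), beside 0.45 for the median of all genes.

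For amyloid against non-amyloid in WT mice, Irf8 was at 0.05 (−0.15 to 0.25) and Runx1 at −0.03 (−0.32 to 0.25) on the marker scale, beside 1.77 and 1.67 per library. Irf5 was at −0.26 (−0.77 to 0.26) and Spi1 at −0.31 (−0.62 to −0.01, adjusted p = 0.0437), a call that was lost in 10 of 20 fits that each left out 1 WT mouse. Cebpa was at −0.65 and Sall1 at −1.19, and Mef2a at −1.60, Mef2c at −1.66 and Bhlhe41 at −1.82, which had no call per library, lay near the median of all genes. With the 10 homeostatic microglial markers as the scale, Irf8, Runx1, Spi1 and Irf5 were at 0.64, 0.55, 0.27 and 0.32, beside −1.06 for the median of all genes, so the sign for Runx1, Spi1 and Irf5 depended on which microglial genes set the scale.

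**Figure D3:**
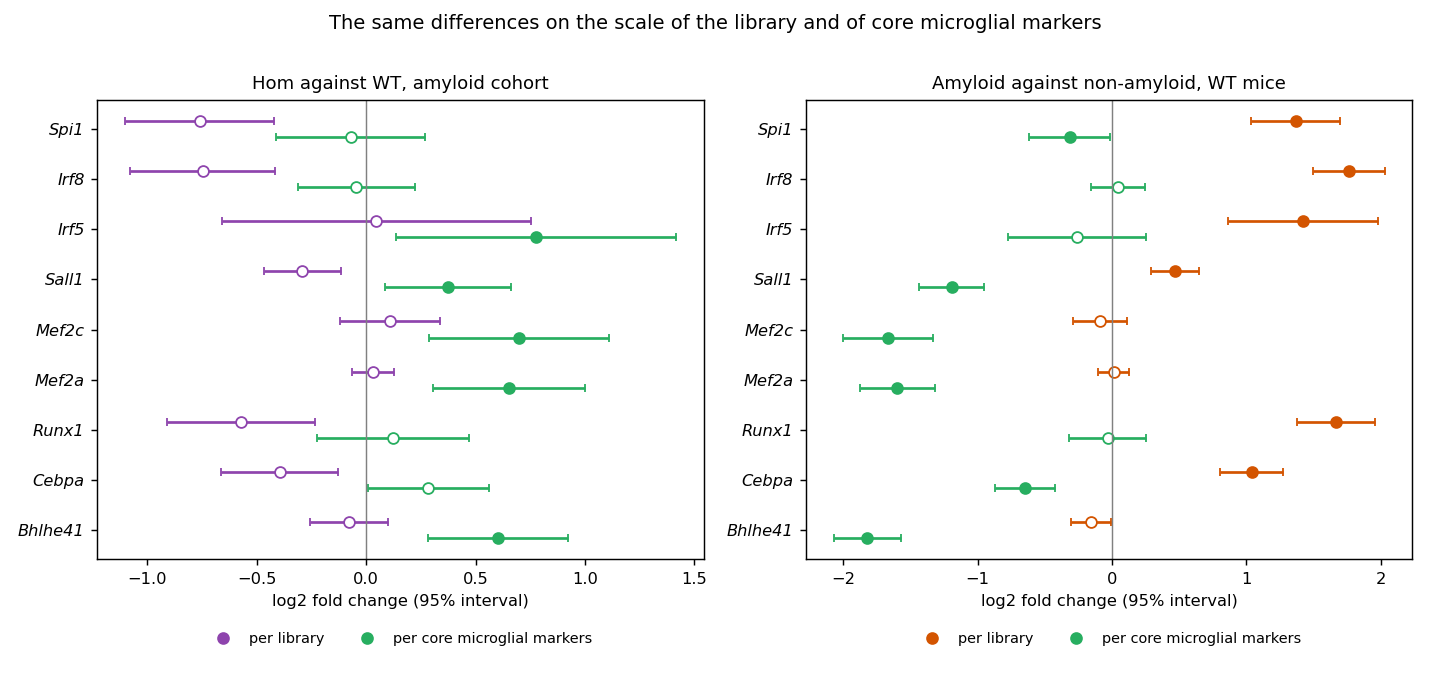
Log2 fold changes with 95% intervals for the 9 genes, normalised to the library (purple, orange) and to the core microglial markers (green), with filled circles for differences past the threshold. On the marker scale Irf8 (−0.05 and 0.05) and Runx1 (0.12 and −0.03) lie near 0 in both panels, whereas Mef2c, Mef2a and Bhlhe41 lie near the medians of all genes at 0.64 and −1.61.

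How the 9 genes varied from mouse to mouse was described by the Pearson correlation of deviations from the 4 group means (log2 CPM), which share the library and its depth. Each group mean was taken over both sexes, so any difference between females and males remains in the deviations. Over 39 libraries without replicate 19, the deviation of the core marker mean correlated with Irf8 at r = 0.84, Cebpa at 0.74, Irf5 at 0.71, Runx1 at 0.65, Spi1 at 0.60, Sall1 at 0.50 and Bhlhe41 at 0.39, and with Mef2c at −0.22 and Mef2a at −0.01. Among the members Irf8 went with Cebpa (0.81), Spi1 (0.74) and Irf5 (0.67), and Mef2c with Mef2a (0.65). Over the 20 amyloid libraries, replicate 19 included, r with the core markers was 0.92 for Irf8, 0.90 for Cebpa and 0.78 for Spi1, against 0.20, 0.13 and 0.28 over the 20 non-amyloid libraries. Irf5 was at 0.37 and 0.41 in these sets. The marker sum spanned a narrow range in the non-amyloid cohort, as given above.

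**Figure D4:**
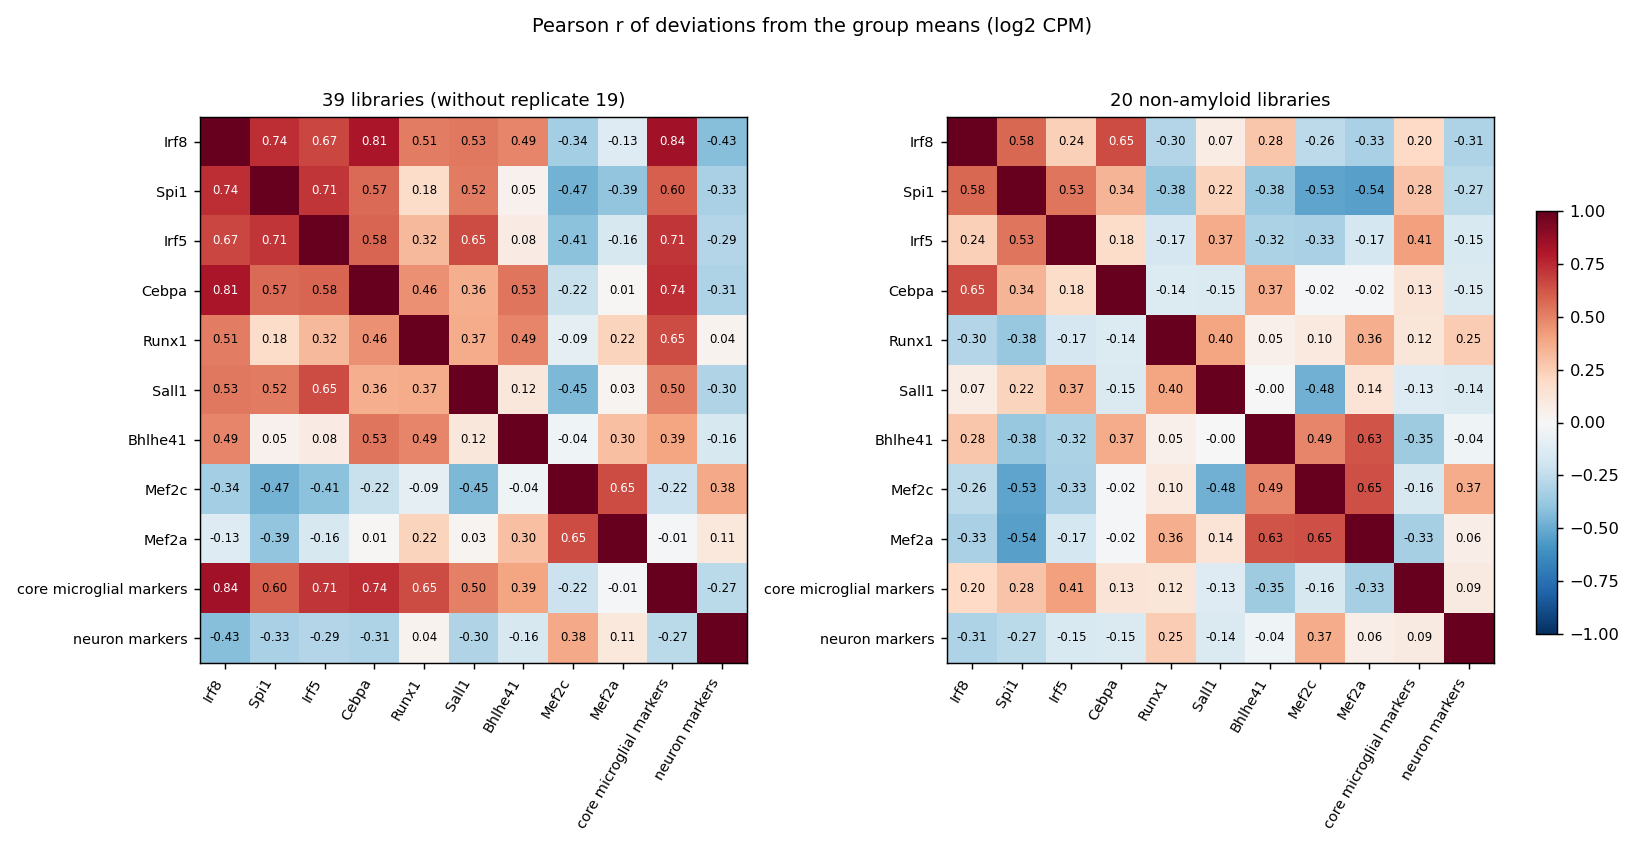
Heat maps of the Pearson correlation r between the deviations of each pair of genes from their group means, over 39 libraries without replicate 19 (left) and over the 20 non-amyloid libraries (right), with the means of the core microglial and neuron markers in the last rows. Irf8 and the core microglial markers are at 0.84 on the left and 0.20 on the right, and Mef2c and Mef2a are at 0.65 in both.

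Of 15197 genes with a mean of at least 1 CPM, those most alike to each member over the 40 libraries differed by member. Irf8 was most like Trem2 (r = 0.88), Hk2 and Ctsz, and Spi1 most like Selplg (0.88), Cyba and Ppp1r18. Cebpa was most like Irf8 (0.78), and also like Themis2, and Runx1 most like Tgfbr2 (0.76), Zc3hav1 and Pros1, of which Tgfbr2 encodes a receptor of TGF-β. Sall1 stood with its paralog Sall3 (0.78), Wasf2 and Pald1, Bhlhe41 with Itga6 (0.71), Hcfc2 and Prmt3, and Mef2a with B230219D22Rik (0.90), Uri1 and Papd5. Mef2c was most like Kcnj3 (0.94) and PCDHA9, genes of a neuronal potassium channel and a protocadherin. Irf5 was most like Gins2, Dnase2a and Irak4 with replicate 19, and like Cyth4 (0.84), C1qa and Cd37 without it. Spi1 was most like Arpc1b (0.88) without replicate 19, and the most alike gene of the other members was the same in both sets.

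The paralogs of the members share their DNA-binding domains. With amyloid in WT mice 5 of 17 tested paralogs were higher and 0 lower (median log2 fold change 0.09), beside 7.95% of all genes called. They were led by Irf9 (0.85, adjusted p = 2.17e-07), Irf7 (1.89, adjusted p = 1.08e-06) and Irf1 (0.60, adjusted p = 7.29e-05), factors of the interferon response. DESeq2 called the same number higher and 1 lower. In Hom mice 0 of 17 were called by edgeR or DESeq2, with 9 at an unadjusted p under 0.05, beside 22.6% of all genes. Hom against WT in the amyloid cohort called 0 of 17 in edgeR, with 6 at an unadjusted p under 0.05 (9.67% of all genes), and 2 in DESeq2 (1.41% of all genes). The lowest p-values were those of Irf7 (−1.23, adjusted p = 0.0974) and Irf9 (−0.51, adjusted p = 0.105).

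Of 30 other microglial and myeloid transcription factors, 29 were tested and 14 were higher with amyloid in WT mice (median 0.32), beside 7.95% of all genes called. Among them were Atf3 (2.12, adjusted p = 6.60e-11), a stress-response factor, and Ikzf1 (1.102, adjusted p = 1.64e-09), a zinc-finger factor of blood lineages. In Hom mice 8 were higher (7 without replicate 19), beside 6.56% of all genes called (4.55% without it). They were led by Atf3 (1.26), Ikzf1 (0.59) and Nfe2l2 (0.41). For Hom against WT in the amyloid cohort 0 of 29 were called by edgeR and 9 had an unadjusted p under 0.05 (9.67% of all genes). DESeq2 called 3, all lower (1.41% of all genes). The lowest p-value in edgeR was that of Atf3 (−0.72, adjusted p = 0.114). The non-amyloid genotypes gave 0 calls in either list by edgeR and by DESeq2, with 1 paralog and 1 other factor at an unadjusted p under 0.05.

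Markers of the microglial states and of other cells were followed as well. With amyloid in WT mice all 12 plaque-associated microglial markers (median log2 fold change 2.61) and all 10 homeostatic markers (0.93) were called higher, beside 7.95% of all genes called. So were 2 of 8 astrocyte, 1 of 8 oligodendrocyte and 1 of 7 endothelial markers. Astrocyte markers ranged from 0.09 to 3.16 in WT mice and from 0.05 to 2.35 in Hom mice, so the highest exceeded every one of the 9 genes. For Hom against WT in the amyloid cohort they ranged from −0.95 to 0.05, with 0 of 8 called by edgeR, 2 at an unadjusted p under 0.05 and 1 called lower by DESeq2, and their part in the results was not tested. Of the 10 macrophage and blood myeloid, 10 neuron and 5 erythroid markers tested, edgeR and DESeq2 called 0 with amyloid in WT mice. There 1, 1 and 0 had an unadjusted p under 0.05 (20.9% of all genes), and with amyloid in Hom mice 1, 4 and 0 (22.6%). For Hom against WT these were 1, 0 and 0 in the amyloid cohort (9.67% of all genes) and 4, 0 and 0 in the non-amyloid cohort (4.61%). The 11 macrophage and blood myeloid markers, among them Mrc1, Ccr2 and S100a8, which mark cells that also express Spi1, Irf8, Irf5, Runx1 and Cebpa, summed to 8.76 to 26.2 CPM over all libraries, with 10.8 to 17.8 CPM in amyloid WT mice, and the sums of the groups overlapped. Replicate 19 had the highest sum of the amyloid Hom mice, at 18.2 CPM. For Hom against WT in the amyloid cohort, 10 of 10 tested had negative estimates, beside 49.6% of all genes. Their median was −0.15, and −0.36 without replicate 19, with 0 called by edgeR either way. Of the 11 markers, the mean was under 0.1 CPM for 2 in amyloid Hom, 2 in amyloid WT, 3 in non-amyloid Hom and 1 in non-amyloid WT mice, and their part in the results was not tested. Neuron markers summed to 11325 to 14261 CPM over all libraries.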

How the data were processed

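The deposited table held whole-number gene counts for 40 cortical libraries, made by the authors from poly-A libraries. The submitters' processing notes name STAR 2.5.2b, featureCounts 1.5.1, edgeR and mm10, whereas the methods of the study name MAP-RSeq with TopHat, Bowtie and featureCounts. The study set aside 1 amyloid Hom female for its low percentage of gene counts and its strandedness check, without naming it. Replicate 19 is an amyloid Hom female with the lowest total and the high share of counts opposite abundant genes. The labels do not say whether it is that mouse, and all 40 libraries were kept here. Libraries held 41646271 to 105903846 counts, and member counts were lowest for Runx1 and Spi1, at 31 and 62 in their lowest libraries.

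Genes that reached 10 counts in 4 or more libraries were fitted with the quasi-likelihood test of edgeR 4.0.16 (TMM, R 4.3.3) and adjusted by Benjamini-Hochberg over all 21253 genes. Genotypes were compared within each cohort, cohorts and their interaction in 1 fit of 4 groups, and sex within the amyloid cohort. Calls required adjusted p below 0.05 plus a log2 change beyond 0.25 either way, with no fold threshold for interactions. Correlations used log2 CPM (prior count 2). The scripts were tested on simulated data. DESeq2 1.42.0, limma 3.58.1 (voom with quality weights), other filters, scalings, covariates and each library left out in turn were alternatives. Figures were drawn with matplotlib 3.10.9.

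The members and lists were chosen with earlier results of these data known. Named genes were the 9 members, Trem2, up to 3 called genes of lowest p from each transcription factor list (otherwise the 2 of lowest p in the amyloid genotype comparison), and the 3 genes most correlated with each member; a few genes that this rule names are not reported here. Replicate numbers run from 1 to 40 without repeats. The p-values test differences between groups against the spread between mice, estimated over the groups of a fit. The labels give no litters, and litter was not modelled.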

Additional observations from a re-analysis of the deposited data

Results flagged for a closer look

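In the 36 groups of 10 mice formed by 9 genes and 4 groups, 2 held a mouse far from the others by Dixon's ratio of gap to range, against about 1 in 20 groups by chance. Irf5 in amyloid Hom replicate 19 stood at 26.7 CPM, with the nearest mouse of its group at 5.29 CPM. Sall1 in non-amyloid Hom replicate 21 stood at 28.6 CPM, with the nearest mouse at 21.5 CPM.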

How the results depend on the processing

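The 6 calls with amyloid in WT mice held under every alternative tried. For Hom against WT in the amyloid cohort the count of members called was 0 in the reported fit, 4 with DESeq2, 2 with filterByExpr, 4 in one fit of all 40 libraries, 3 with sex as a covariate and 3 with sex as a covariate without replicate 19, and 0 to 2 with each library left out. Over all genes these counts were 16 in the reported fit, 300 with DESeq2, 612 in one fit, 251 with the sex covariate, 66 with filterByExpr, 25 with limma-voom and 9 with no filter. The interaction of genotype and cohort called 1 member with DESeq2 and 0 to 1 with a library left out. Over all genes it called 27 with DESeq2 and 12 with the sex covariate, against 0. Sex called 1 member with DESeq2 (258 genes, or 22 with no filter, against 47). The homeostatic scale called 3 members for Hom against WT in the amyloid cohort, beside 13818 of 21253 genes. The core scale called 5 members there, beside 16897 genes. The cohort comparison in Hom mice called 967 genes without replicate 19, against 1395. Signs reversed for Irf5 in Hom against WT with amyloid (−0.54 with DESeq2, −0.41 with limma-voom, −0.060 with the sex covariate, −0.54 with that covariate and without replicate 19, and −0.58 to 0.14 with a library left out), in its interaction with cohort (−0.66 to 0.059) and with sex (−0.22 to 0.95). On the homeostatic scale Irf5 (0.32), Runx1 (0.55) and Spi1 (0.27) reversed for the cohorts and Runx1 (−0.079) for the genotypes, and Runx1 on the core scale ran from −0.069 to 0.018 with a library left out. The other reversals were of estimates near 0: Irf8 in non-amyloid Hom against WT (−0.00031 with DESeq2, −0.0074 with library size alone, −0.0057 with upper-quartile scaling, −0.026 to 0.036 with a library left out), Mef2a (−0.0043 and −0.00062 with limma-voom in the amyloid and non-amyloid genotype comparisons, −0.0066 with DESeq2 and −0.0058 with no filter between WT cohorts), and, with a library left out, Mef2a in non-amyloid genotypes (−0.018 to 0.041), WT cohorts (−0.025 to 0.037) and the interaction (−0.0097 to 0.052), Mef2c by sex (−0.094 to 0.0093), and Runx1 (−0.089 to 0.0012) and Sall1 (−0.10 to 0.0089) in non-amyloid genotypes. The cause was not tested. No paired analysis was possible because each replicate number occurs once. Of all estimates for the members under the alternatives, 2096 kept their direction and side of the threshold, 57 reversed, 22 lost and 30 gained a call. Counts were lowest for Runx1, at 31 in its lowest library, and the part of depth in the precision was not tested.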
